A study of Gallus gallus with 4 samples.

Results

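The genes described here encode the myosins of the chicken bursa and the proteins that bundle, cap, cut or branch actin filaments, among them those that build microvilli. They were chosen by symbol, taking each gene named alone by a probe set whose symbol begins with MYO and a digit, or with MYH, MYL, TPM, ARPC, CAPZ, TMSB, FSCN or ACTN and a further character. To these were added 16 listed genes such as VIL1, LCP1 and EZR, of which 14 were matched, while CFL1 and PFN1 were not analysed here. In total 84 of the 13009 genes named on the array met the rule, with 191 probe sets between them, and each was represented by its probe set of highest mean log2 signal. The rule works on letters, so it also took in TPMT, a drug-methylating enzyme, and MYLIP, a ubiquitin ligase named for binding myosin light chains.

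RNA was measured on 4 single-colour arrays, 2 of follicle-associated epithelium (FAE) and 2 of interfollicular epithelium (IFE). Groups follow the titles and the cell type labels, while the source label names FAE for all 4 samples. All came from the bursa of Fabricius, the organ in which chicken B cells form, of healthy Line-M chicks aged 19 days and kept free of specific pathogens. All 4 samples had 5 min of ink. FAE, the cover of the lymphoid follicles, was picked by needle after 5 min in EDTA buffer at room temperature. IFE, which lies between follicles, was picked by needle after 30 min in EDTA buffer at 37 °C. The epithelium and the EDTA treatment therefore cannot be told apart in any comparison below, and nothing in the labels states that replicate samples were taken from different birds.

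Absorptive epithelial cells carry on their free surface microvilli, each a core of parallel actin filaments held together by villin, plastin and espin, tied to the membrane by ezrin and short-tailed myosins. Cells that take up particles, such as M cells over lymphoid follicles and macrophages, instead rely on branched actin made by the Arp2/3 complex and on contractile non-muscle myosin. Several of these proteins exist as related copies, one used in epithelia and another in blood cells: L-plastin (LCP1), HS1 (HCLS1) and myosin 1F (MYO1F) are known in mammals as the copies of blood cells. The study asks how FAE differs from IFE, and for these genes the question is which copies differ between the 2 epithelia.

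Epithelial RNA was plain on every array. EPCAM and CDH1, the epithelial adhesion proteins, had scaled signals of at least 315 and at least 245 on all 4 arrays. Leukocyte RNA was present as well, with macrophage and B cell markers mostly higher in FAE. The summed signal of 13 macrophage and dendritic cell markers was 658 to 809 in FAE and 75.9 to 95.1 in IFE. Of 12 tested, 8 were called higher, where 6.31% of all tested genes were called higher and 3.96% lower. Among these 8, C1QC had 4.76 and 2.68 in FAE against 0.269 and 0.411 in IFE. Under background on both IFE arrays, C1QC was tested through its FAE signal. IRF8 (3.94 and 3.87 in FAE against 12.6 and 7.03 in IFE) and MARCO had both FAE arrays below both IFE arrays, uncalled. For 11 B cell markers the sums were 391 to 413 in FAE and 34.3 to 63.1 in IFE, with 7 of 9 called higher. PAX5, at 1.44 and 0.859 in FAE against 1.52 and 2.65 in IFE, ran the other way, uncalled. Among T cell markers 1 of 7 tested, CD3E of the T cell receptor complex, was called higher (35.8 and 32.1 against 14.5 and 11.3, adjusted p = 0.0213). The T cell sums overlapped, at 64.0 to 71.4 in FAE and 44.5 to 71.9 in IFE, and GATA3, which is not only a T cell gene, gave 49.95 of the highest IFE sum. Of the 11 epithelial markers, 3 (ELF3, PKP2 and CDH17) were called lower in FAE and none higher. Both FAE arrays lay below both IFE arrays for 8 of them, where 32.5% of all tested genes had this order and 26.7% the reverse. For 2, CLDN3 (88.8 and 52.75 in FAE against 51.4 and 40.8 in IFE) and DSP, both lay above, uncalled. As for RNA quality, 3' signal exceeded 5' signal many-fold on all 4 arrays, and most on IFE replicate 2. Its ratio of 3' to 5' beta-actin signal was 31.2 against 14.4 to 18.6 on the other arrays. For GAPDH it was 18.7 against 10.6 to 14.2. In RNA from such mixtures, fewer cells of a type and less RNA per cell cannot be told apart.

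Of the 84 genes, 65 were bright enough to be tested, that is, their mean scaled signal reached the 40th percentile of the array. LCP1, the villin gene VIL1, MYO1F, the moesin gene MSN, HCLS1, 2 Arp2/3 subunits and 2 thymosins were among those higher in FAE. In all, 14 of the 65 were called higher in FAE and 2 lower (limma, Benjamini-Hochberg adjusted p under 0.05 over all 23063 tested probe sets). That is 21.5% higher, where 6.31% of all 10388 tested genes were called higher, and 3.08% lower, where 3.96% of all were called lower. The median log2 fold change, FAE over IFE, was 0.33 over the set and -0.07 over all tested genes. Both FAE arrays lay above both IFE arrays for 30 of the 65 genes and below for 13, and the groups overlapped for 22. Over all genes these orders held for 26.7% and 32.5%. Without MYLIP and TPMT the counts were 14 higher and 1 lower of 63. Leukocyte marker levels moved with these calls, and their part in them was not tested.

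Without limma's intensity trend 13 of the 16 calls were lost, and 3 members, LCP1, MYO1F and HCLS1, were called higher and 0 lower. Of all tested genes 2.35% were then called higher and 0.462% lower. The number of calls also rested on which sample was left out. Such a fit leaves 1 array in a group and assumes that it varies like the other group. The number called fell without either FAE sample and rose without either IFE sample, in the set and over all tested genes alike. The set's median log2 fold change was 0.328 without FAE replicate 1 and 0.327 without FAE replicate 2. It was 0.467 without IFE replicate 1 and 0.26 without IFE replicate 2, the array of lower RNA quality. The medians over all genes were then -0.0432, -0.0866, -0.0571 and -0.0913, in that order. All 16 calls held without IFE replicate 1 and without IFE replicate 2. Under that assumption LCP1, MYO1F, HCLS1 and ARPC1B were called whichever sample was left out, and of the left-out samples only FAE replicate 1 cost VIL1 and MYH1B their calls. Signals on IFE replicate 2 were below those on IFE replicate 1 for 45 of the 65 genes (69.2%), against 51.7% of all tested genes.

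**Figure D1:**
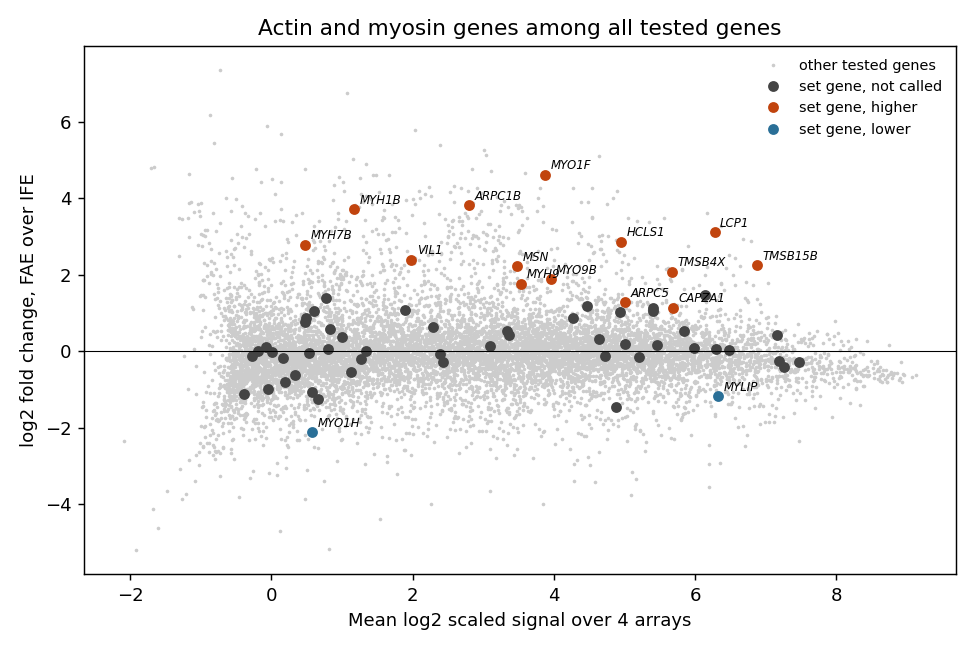
The log2 fold change of FAE over IFE (vertical) is plotted against the mean log2 scaled signal over 4 arrays (horizontal) for every tested gene, with the 65 tested actin and myosin genes as large points. The 14 genes called higher run from MYH7B at low signal to TMSB15B at high signal, and MYO1H and MYLIP are the 2 called lower.

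Among villin, the plastins, espin and EPS8, LCP1 and VIL1 were higher in FAE and the other 4 did not pass. LCP1 was grouped here as a plastin, though it is the copy of blood cells and not that of intestinal microvilli. LCP1, the L-plastin that crosslinks actin in leukocytes, had scaled signals of 227.5 and 229.8 in FAE against 35.4 and 19.6 in IFE. It was 8.69-fold higher in FAE (log2 fold change 3.12, SE 0.30, adjusted p = 0.00305), and the groups were far apart. VIL1, the villin of intestinal and kidney brush borders, had 10.6 and 7.73 in FAE against 2.11 and 1.42 in IFE. FAE was thus higher on both arrays, by 2.39 on the log2 scale (SE 0.33, adjusted p = 0.00857). VIL1 had a single probe set, and its call was lost under 2 of 14 alternatives, with an adjusted p of 0.106 at most.

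PLS1, the I-plastin of intestinal microvilli, ran the other way, at 1.08 and 0.960 in FAE and 2.04 and 2.90 in IFE. The groups did not overlap, but the difference of -1.25 did not pass (95% confidence interval -2.13 to -0.37, adjusted p = 0.0938). PLS3, the T-plastin of solid tissues, had 38.8 and 28.9 in FAE against 23.2 and 9.27 in IFE and did not pass either (log2 fold change 1.19, adjusted p = 0.157). Its second probe set, at 24.9 and 20.2 against 10.4 and 6.93, was called higher (log2 fold change 1.41, adjusted p = 0.0356). EPS8, which caps and bundles filaments at microvillus tips, had 0.64 (-0.20 to 1.47), and ESPN, the espin bundler, had -0.63 (-1.61 to 0.35). Both intervals include 0. The other 2 tested EPS8 probe sets gave -0.02 and 0.25, and the other tested ESPN probe set ran the other way at 0.37, all uncalled. ESPN and PLS1 lay close to the background on the FAE arrays, which was 0.671 and 0.683.

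The ERM proteins tie actin to the membrane, and on the brightest probe sets only moesin was called. MSN, the ERM protein most abundant in leukocytes and endothelium, had 25.2 and 23.1 in FAE against 6.34 and 4.18 in IFE (log2 fold change 2.23, SE 0.30, adjusted p = 0.00750). Another MSN probe set, at 14.5 and 8.70 against 3.35 and 1.27, was also called higher (2.45). A further one, near background at 0.825 and 0.731 against 0.795 and 0.665, gave 0.10, uncalled. The chip marks each of these as one that may read several transcripts or related genes. With such probe sets dropped, MSN was too dim to test. EZR, the ezrin of epithelial microvilli, was nearly level on its brightest probe set. It had 23.8 and 27.0 in FAE against 27.8 and 27.7 in IFE, the FAE arrays slightly lower. Its difference of -0.13 had an interval of -0.68 to 0.42, which leaves out a change as large as that of MSN. A dimmer EZR probe set, at 8.63 and 6.36 against 13.8 and 11.4, gave -0.76 and was not called. RDX, radixin, was level on its brightest probe set, at 77.0 and 83.6 against 76.1 and 78.3 (difference 0.06, -0.41 to 0.53). A dimmer RDX probe set, at 22.2 and 22.9 against 10.95 and 9.90, was called higher by 1.12 (adjusted p = 0.0380), so the probe sets of this gene disagree.

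**Figure D2:**
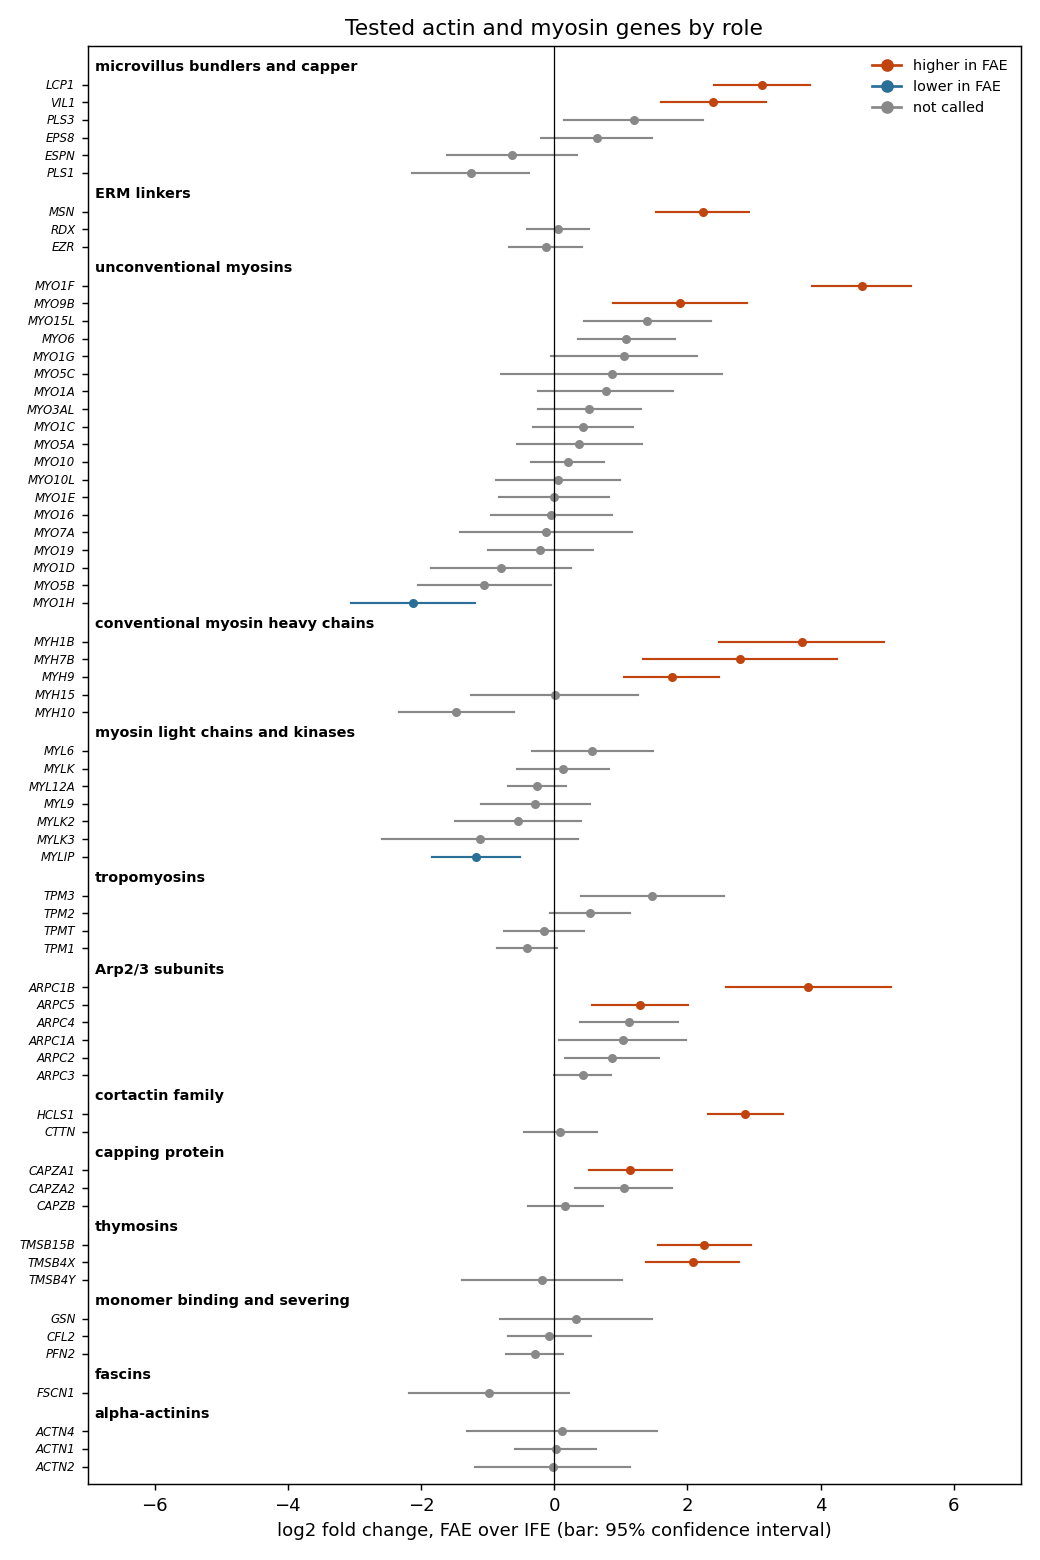
Each tested gene is shown with its log2 fold change of FAE over IFE (point) and the 95% confidence interval of the limma fit (bar), grouped by role. The 6 Arp2/3 subunits all lie above 0 and 2 of them were called, while ezrin, radixin and cortactin (CTTN) lie close to 0 beside moesin and HCLS1, which are far above it.

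Unconventional myosins walk along actin or tether membranes to it, and 19 of 23 were tested. MYO1F and MYO9B were called higher and MYO1H lower, where 6.31% of all tested genes were called higher and 3.96% lower. MYO1F, a class I myosin of blood cells, had 81.5 and 65.0 in FAE against 3.74 and 2.35 in IFE. At 24.6-fold (log2 fold change 4.62, SE 0.31, adjusted p = 0.00208) this was the largest increase in the set, and it passed under all 14 alternatives. MYO9B, a myosin that switches off RhoA, had 32.2 and 27.6 in FAE and 12.6 and 5.15 in IFE (1.88, SE 0.43, adjusted p = 0.0429). Its IFE arrays differed from each other by more than its FAE arrays did, and the call was lost under 5 of 14 alternatives.

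MYO1H, another class I myosin, had 0.636 and 0.806 in FAE and 3.80 and 2.55 in IFE. It was lower in FAE by 2.12 on the log2 scale (SE 0.39, adjusted p = 0.0236), with the signal of FAE replicate 1 under background, so the size of the change is uncertain. The other 3 tested probe sets of MYO1H were lower as well, by 0.74 to 3.09, though none was called. Myosins with known epithelial duties did not pass. MYO1A, brush border myosin I, was dim at 1.83 and 1.80 in FAE and 1.42 and 0.800 in IFE (0.77, -0.24 to 1.78). MYO6, which moves towards the base of microvilli and works in endocytosis, had 5.31 and 5.51 against 2.10 and 3.10 (1.08, adjusted p = 0.0838), with the groups apart. Its other tested probe set, nearer background at 0.933 and 1.02 against 1.18 and 1.78, ran the other way (-0.57, uncalled). MYO5B, a carrier of recycling endosomes, had -1.05 (adjusted p = 0.188) and MYO7B, a myosin of microvillus tips, was too dim to test. The brightest of the rest, MYO10 of filopodia, had 36.1 and 33.1 against 32.6 and 27.6 (0.20, -0.35 to 0.75), MYO1C had 0.43 (adjusted p = 0.462) and MYO3AL had 0.52 (adjusted p = 0.383). The other 10 tested unconventional myosins ran from -0.80 for MYO1D to 1.40 for MYO15L, none called. They include MYO1G, a myosin of blood cells, at 1.81 and 2.62 against 1.48 and 0.745 (1.05, -0.04 to 2.15).

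Conventional myosins form the contractile filaments, and of 11 heavy chain genes 5 were tested. The non-muscle pair stood in opposite order. MYH9, the heavy chain of non-muscle myosin IIA, had 21.2 and 21.6 in FAE and 7.87 and 5.02 in IFE and was called higher (log2 fold change 1.77, SE 0.30, adjusted p = 0.0175). MYH10, the IIB heavy chain, had 13.7 and 22.8 in FAE against 37.3 and 63.8 in IFE, and its difference of -1.47 lay just outside the threshold (adjusted p = 0.0558). Its groups did not overlap, its other 2 tested probe sets gave -1.01 and -1.05, and MYH10 was called lower under 6 alternatives, among them without either IFE sample.

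Muscle-type heavy chain probe sets also gave signal in FAE. MYH1B, a fast skeletal muscle chain, had 9.62 and 6.97 in FAE and 0.366 and 1.06 in IFE (log2 fold change 3.72, SE 0.52, adjusted p = 0.00914), with IFE replicate 1 under background. A second MYH1B probe set, at 8.35 and 4.98 against 0.0276 and 0.0576, was also called higher. Both of its IFE signals lay under background, so it was tested through its FAE signal and is no separate support. MYH7B, a slow-type chain, had 4.23 and 3.17 against 0.990 and 0.284 (2.79, SE 0.62, adjusted p = 0.0401), with IFE replicate 2 under background, and 5 of 14 alternatives ended its call. The IFE mean of MYH7B, 0.637, was under the 0.695 needed for testing, so its FAE signal brought it into the test. MYH15 was level near background. MYH1C, too dim to test, had 1.09 and 1.18 in FAE and was under background on both IFE arrays, at least 1.32-fold higher. MYH1B, MYH1E and MYH1C stand next to each other in the gene order of the assembly GRCg7b, and such near-identical copies may share probes, so which of them was measured is uncertain. The summed signal of 11 skeletal and cardiac muscle markers overlapped between the groups, at 13.4 to 13.6 in FAE and 11.1 to 16.1 in IFE. Of the 5 tested, 0 were called by limma, 1 passed at an unadjusted p under 0.05 (TNNI2, a fast troponin, 1.22, adjusted p = 0.0541), and MYOD1 and TNNC2 did not reach background on any array.

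Of 15 genes named for myosin light chains, their kinases included, 7 were tested and only MYLIP, which is neither, was called. It was called lower, as were 3.96% of all tested genes. MYLIP had 61.1 and 46.4 in FAE against 96.8 and 149 in IFE (log2 fold change -1.17, SE 0.28, adjusted p = 0.0494), and 5 of 14 alternatives ended the call. MYL12A, a regulatory light chain of non-muscle myosin, was bright and nearly level, at 128 and 139 against 156 and 164 (-0.26, -0.69 to 0.17). MYLK, the kinase that switches on smooth muscle and non-muscle myosin, had 0.13 (-0.55 to 0.82), MYL9 had -0.28 (-1.10 to 0.53) and MYLK2, the skeletal muscle kinase, had -0.54 (-1.49 to 0.41). MYL6, a non-muscle light chain, had 0.57 (-0.34 to 1.48). MYLK3, the heart muscle kinase, was under background on both FAE arrays and at least 1.67-fold lower there, without passing (adjusted p = 0.331). The smooth muscle chain MYH11 was too dim to test, with no signal above 0.687. Of the 4 tested smooth muscle markers 2 were called higher in FAE, where 6.31% of all tested genes were. These were caldesmon (CALD1, 15.1 and 14.7 against 3.09 and 2.74) and synemin (SYNM, 10.55 and 6.70 against 0.441 and 0.382). SYNM was under background on both IFE arrays and was tested through its FAE signal. TAGLN (0.967 and 2.03 against 1.67 and 3.51) and DES overlapped between the groups, uncalled. ACTA2, the defining smooth muscle actin, did not exceed 0.314 on any array.

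Tropomyosins, which run along actin filaments and control what binds there, had no call among their brightest probe sets. TPM3 had 119 and 115 in FAE and 71.3 and 24.9 in IFE (1.47, 0.40 to 2.55, adjusted p = 0.104), with a wide spread between the IFE arrays. TPM1 had 123 and 143 against 168 and 184 (-0.41, -0.86 to 0.04), and TPM2 had 75.0 and 63.7 against 56.7 and 40.0 (0.54, -0.06 to 1.14). These genes make many splice forms, and their 8, 6 and 4 probe sets, for TPM1, TPM2 and TPM3, did not move as one. A TPM1 probe set at 1.24 and 1.12 against 3.79 and 5.05 was called lower (-1.89, adjusted p = 0.0170). A TPM2 probe set at 14.4 and 13.6 against 3.70 and 3.27 was called higher (2.01, adjusted p = 0.00690), as was a TPM3 probe set at 5.81 and 4.58 against 2.17 and 1.31 (1.61, adjusted p = 0.0391). The files do not say which splice form a probe set reads. TPMT had -0.16 (-0.76 to 0.44).

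The Arp2/3 complex nucleates branched actin, and for all 6 of its measured ARPC subunits both FAE arrays were above both IFE arrays. Over all tested genes 26.7% had this order. ARPC1B, the blood cell form of the p41 subunit, had 25.6 and 26.6 in FAE against 3.34 and 1.03 in IFE (log2 fold change 3.82, SE 0.52, adjusted p = 0.00827). On IFE replicate 2 the signal lay at the background of 1.02, so the size of the change is uncertain. The 2 other probe sets of ARPC1B gave 2.67 (adjusted p = 0.0544) and, close to background, -0.39. That last value takes the gene's place, uncalled, once probe sets that may cross-hybridise are dropped. ARPC1A, the other form of that subunit and its neighbour in the gene order, had 45.8 and 42.0 against 33.2 and 13.9 (1.03, adjusted p = 0.182). ARPC5 had 51.2 and 48.9 against 27.0 and 15.7 and was called higher (1.28, SE 0.30, adjusted p = 0.0495), a call that did not hold under 5 of 14 alternatives. The subunits ARPC4, at 1.13 (adjusted p = 0.0760), ARPC2, at 0.87 (adjusted p = 0.134), and ARPC3, at 0.43 (adjusted p = 0.207), did not pass.

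Cortactin-type proteins hold the branches that Arp2/3 makes. HCLS1, the blood cell form, had 88.9 and 79.0 in FAE against 12.6 and 10.5 in IFE (log2 fold change 2.87, SE 0.24, adjusted p = 0.00232). Its replicates lay close together in both groups. Its second probe set lay near background, at 0.725 and 1.12 against 0.882 and 1.71, and was not called. With probe sets that may cross-hybridise dropped, this second one represents HCLS1, the call ends and the sign turns (-0.44, adjusted p = 0.663). CTTN, cortactin itself, was level on its brightest probe set, at 63.5 and 66.7 in FAE and 70.7 and 52.7 in IFE (0.09, -0.46 to 0.64). The other 2 tested CTTN probe sets gave -0.36 and -1.235, uncalled.

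**Figure D3:**
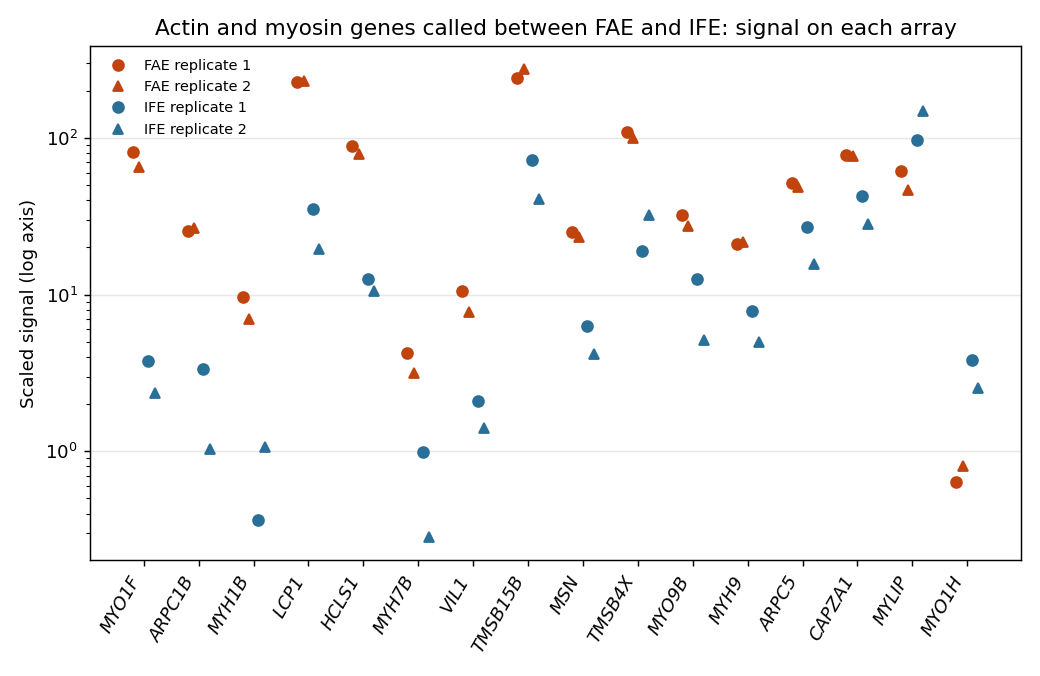
Scaled signal (log axis) of the 16 called genes on each array, with FAE in orange, IFE in blue, circles for replicate 1 and triangles for replicate 2. The FAE points lie above the IFE points for the 14 genes from MYO1F to CAPZA1 and below them for MYLIP and MYO1H, with no overlap in any of the 16.

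Thymosins bind actin monomers and keep them from joining filaments, and 2 of 3 were called higher, where 6.31% of all tested genes were. TMSB15B had 241.5 and 273.6 in FAE and 72.2 and 40.5 in IFE (2.25, SE 0.29, adjusted p = 0.00718). TMSB4X, the main thymosin of leukocytes, had 109 and 99.9 in FAE and 19.0 and 32.3 in IFE (2.08, SE 0.29, adjusted p = 0.00928). All 3 TMSB4X probe sets were called higher, at 2.08, 2.23 and 2.39, though the chip marks each as one that may read several transcripts or related genes. The single probe set of TMSB15B is marked in the same way. The dim TMSB4Y had -0.18 (-1.38 to 1.01). PFN2, a profilin, which feeds monomers to filaments, was not called. It had 151 and 169 against 191 and 200.2 (-0.29, -0.72 to 0.14). CFL2, the filament-cutting cofilin found mostly in muscle, was not called on its brightest probe set, which had 5.17 and 4.98 against 5.60 and 5.12 (-0.08, -0.70 to 0.54). Its second probe set was called higher, at 7.052 and 7.499 against 1.99 and 2.09 (1.83, adjusted p = 0.0104), so the probe sets of CFL2 disagree. GSN, the severing protein gelsolin, had 26.9 and 29.2 in FAE and a wide 38.5 and 12.9 in IFE (0.33, -0.81 to 1.47).

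Capping protein, a heterodimer that closes filament ends, had 1 gene called higher among the 3 tested, where 6.31% of all tested genes were. CAPZA1, an alpha chain, had 77.2 and 76.0 in FAE and 42.6 and 28.2 in IFE and was called (1.14, SE 0.26, adjusted p = 0.0450), but 6 of 14 alternatives ended that call. The other tested alpha chain, CAPZA2, had 68.1 and 53.7 against 22.7 and 38.0 (1.04, adjusted p = 0.0913, not called), and the beta chain CAPZB had 53.7 and 40.7 against 40.8 and 42.5, with overlap (0.17, -0.40 to 0.73). The crosslinkers were level or dim. ACTN1, the alpha-actinin of adhesions and stress fibres, had 80.6 and 99.9 in FAE and 106.8 and 73.0 in IFE (0.02, -0.58 to 0.63), and ACTN4 and ACTN2 were near background with 0.12 and -0.03. FSCN1, the fascin of filopodia and dendritic cells, was dim as well, at 0.543 and 0.878 against 1.21 and 1.54 (-0.99, adjusted p = 0.296).

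For 9 pairs of related genes the log2 ratio of the copies was taken within each array, and in 7 pairs both FAE ratios lay above both IFE ratios. The pairs were chosen with earlier results known, and some genes stand in more than 1 pair. LCP1, HCLS1, MSN, MYO1F and MYH9 were themselves called higher, so the order of their pairs in part restates those calls. The share of all gene pairs with this order was not computed. The LCP1 to PLS1 ratio was higher in FAE by 4.37 on the log2 scale and that of MYO1F to MYO1A by 3.85. The ratio of MYH9 to MYH10 was higher by 3.24, HCLS1 to CTTN by 2.78, MSN to EZR by 2.36 and LCP1 to PLS3 by 1.93. That of RDX to EZR differed by 0.19, MYO1G to MYO1A by 0.28 with overlap, and MYH11 to MYH9 by -0.42 with overlap. That last ratio has no firm size, since MYH11 was too dim to test and exceeded background on 1 array only. With 2 arrays against 2, the two-sided exact permutation test cannot give less than p = 0.333, the value for each of the 7 separated pairs, or 0.428 after Benjamini-Hochberg adjustment over the 9 pairs. Leukocyte marker levels differed between the same arrays, and their part in these ratios was not tested.

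**Figure D4:**
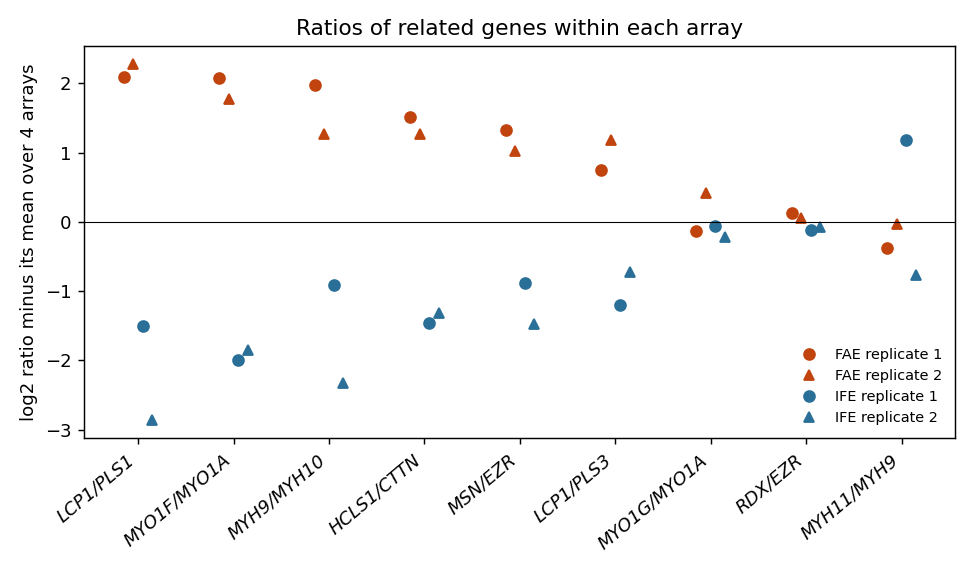
The log2 ratio of 2 related genes within each array, minus that pair's mean over the 4 arrays (vertical), is shown for 9 pairs (horizontal). FAE (orange) and IFE (blue) are widely apart for the pairs from LCP1/PLS1 to LCP1/PLS3, close for RDX/EZR, and mixed for MYO1G/MYO1A and MYH11/MYH9.

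Other probe sets gave a further view of each gene. Of the 16 called genes, 9 had another tested probe set, 15 such probe sets in all. Of these, 13 had the sign of the brightest one and 5 were called the same way, those of LCP1, MSN, MYH1B and TMSB4X. That of MYH1B was under background on both IFE arrays and was tested through its FAE signal, so it is no separate support. The 2 with the opposite sign, for ARPC1B and HCLS1, lay near background. Among uncalled genes, 6 of the 21 with another tested probe set had one that was called, namely CFL2, PLS3, RDX, TPM2 and TPM3 higher and TPM1 lower.

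**Figure D5:**
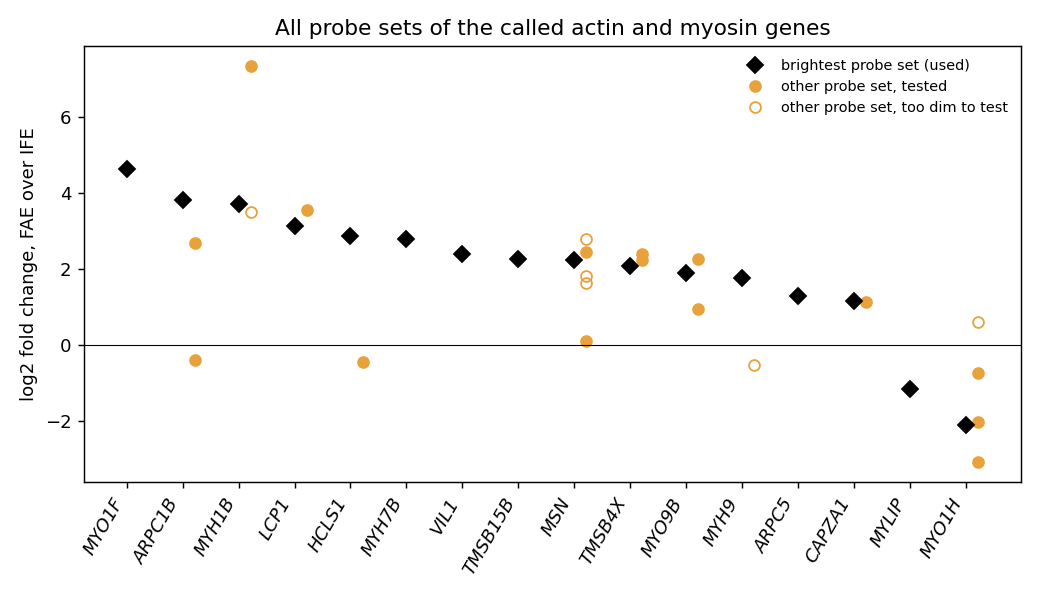
For each of the 16 called genes the log2 fold change of FAE over IFE is plotted for the brightest probe set (black diamond), for its other tested probe sets (filled circles) and for those too dim to test (open circles). The other probe sets of LCP1, MYH1B and TMSB4X lie on the same side of 0 as the diamond. A tested one of ARPC1B, a tested one of HCLS1 and untested ones of MYH9 and MYO1H lie across 0 from it.

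Of 109 listed further regulators of actin, 92 were on the array and 81 were tested. Over all tested genes 6.31% were called higher and 3.96% lower, with a median log2 fold change of -0.07. Among the 81 tested regulators 12 were called higher in FAE, 5 lower and 64 neither, with a median of 0.12. Those called higher included the blood cell forms RAC2, a small GTPase (43.7 and 51.9 in FAE, 6.09 and 4.49 in IFE, log2 fold change 3.19), the formin FMNL1 (3.19) and NCKAP1L, a subunit of the WAVE complex (1.59). Also higher were WIPF1, the partner of the Wiskott-Aldrich protein (2.22), the Arp2/3 subunit ACTR3 (1.23), CORO1C (1.40) and the filament extender EVL (1.21). USH1C, harmonin, which links microvillus tips in intestine, had 26.4 and 18.5 in FAE and 1.44 and 6.44 in IFE (2.86, SE 0.65, adjusted p = 0.0429). Of genes listed with it, CALML4 (3.69 and 4.59 against 9.30 and 7.34) and CDHR2 (-0.25) were not called. CDHR5 and ANKS4B were under background on every array. Lower in FAE were SVIL, supervillin (-1.83), LIMK2, a kinase that switches off cofilin (-1.80), CORO2A (-1.24), EPB41, protein 4.1 (-1.22), and SLC9A3R2, a scaffold that binds ezrin (-1.11). LIMK1, its relative, was higher (2.44). Actin itself was level: ACTB had 316 and 378 against 344 and 222, and ACTG1 had 262 and 326.5 against 347 and 292, neither called.

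The remaining 19 genes were too dim to test, 8 light chain or light chain kinase genes, 6 heavy chain genes, 4 unconventional myosins and CAPZA3, and 11 of them did not reach background on any array. Their highest signal was 1.18. They include the sarcomere genes MYL1, MYL2, MYL3 and MYLPF of skeletal and cardiac muscle, and MYO3A, MYO3B, MYO7B and MYO18B.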

How the data were processed

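Signals of 38535 probe sets on 4 Affymetrix chicken arrays were used, 2 per group. The deposited values are linear intensities made by the authors with MAS5, a program the submitters' processing notes name without version or settings. Their scaling is not given in the headers, but every deposited column had a median of 1 and a minimum of 0.01. The arrays were brought to the same 2% trimmed mean before taking log2. Array controls (96) were left out. Probe sets whose mean scaled signal reached 0.695, the 40th percentile, entered a two-sided comparison of FAE with IFE by limma 3.58.1 under R 4.3.3, using lmFit followed by eBayes with trend, and p-values were adjusted over all of them. The fit was run on simulated data that had an intensity trend and equal spread in both groups, as the fit assumes. That run checks the code and lends no support to the calls. In the real data the median absolute log2 difference between replicates over all tested genes was 0.211 in FAE and 0.443 in IFE. Values are scaled signals, and SE and 95% intervals come from the fit. With birds not stated, p-values reflect the spread of these samples alone, which may be technical, and precision is limited by the number of arrays. Background was the 95th percentile of 744 unnamed probe sets without the chicken prefix, and a fold against a group under it on both arrays is a lower bound. Genes were named through the platform annotation, and 82 of the 84 were placed in the RefSeq table of GRCg7b.

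The genes, the lists of further actin regulators and cell markers, and the tests were chosen with earlier results of these data known. Values were given for every called gene and for up to 4 further genes of highest signal in each role group, and any other member could be named. Alternatives covered scaling, filter, offset, floor, moderation, choice of probe set, a replicate block and each sample left out.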

Additional observations from a re-analysis of the deposited data

How the results depend on the processing

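LCP1 and MYO1F were called under all 14 alternatives. Against 14 members higher and 2 lower, and 656 genes higher and 411 lower, limma without the intensity trend called 3 and 0 members, 244 and 48 genes, and 4 and 0 of the other actin genes (12 and 5 in the main analysis). Scaling to a common median moved the median of all genes from -0.0714 to 0.0574 and left 11 members higher and 1 lower. Of all genes 5.93% were then higher and 2.83% lower. No filter left 10 members higher and 1 lower, with 3 other actin genes lower, where 4.31% of all genes were higher and 2.34% lower. The members' median log2 fold change, 0.329, was 0.531 with a stricter filter, and 0.0919 after dropping the probe sets that may cross-hybridise. That last choice replaced the probe sets of ARPC1B and HCLS1 by dim ones with -0.389 and -0.444, so both reversed, uncalled. Leaving out 1 sample at a time, with the lone array assumed to vary like the other group, gave 4 to 27 members higher and 0 to 5 lower, 124 to 1826 genes higher and 25 to 1428 lower, and 3 to 27 other actin genes higher and 0 to 11 lower. The lowest counts came without FAE replicate 1 and the highest without IFE replicate 1. Deviations of samples with the same number correlated at only 0.0246, so the numbers were not taken as pairs. A replicate block called 18 members higher and 3 lower, with 807 genes higher and 651 lower. The cause of these shifts was not tested. Signals near background, such as those of PLS1, ESPN, FSCN1 and MYO1H, and that of ARPC1B on IFE replicate 2, limit what can be said of their size.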

Other observations

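A further 3 regulators of actin were called higher in FAE by limma. EPB41L2, a protein 4.1 relative that ties actin to the membrane, had signals of 66.0 and 53.0 in FAE against 8.95 and 7.96 in IFE (log2 fold change 2.81, adjusted p = 0.00249). PALLD, palladin of stress fibres, differed by 1.21 and CAP2, a binder of actin monomers, by 1.91. Of the 4 tested endothelial markers only CDH5, the cadherin of vessel junctions, was called, at 13.95 and 9.20 against 0.953 and 1.03. Of the 4 tested erythrocyte markers only the globin HBA1 was called, at 3.85 and 6.01 against 0.154 and 0.287, with both IFE arrays under background. HBA1 was thus tested through its FAE signal. Of all tested genes 6.31% were called higher. Of the 7 tested fibroblast markers 0 were called and 0 passed at an unadjusted p under 0.05. The summed signal of all 8 fibroblast markers on the array was 8.87 and 21.8 in FAE against 13.5 and 13.4 in IFE.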
